A study of Mus musculus with 9 samples.

Results

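The acute phase and chitinase-like genes described here are Saa3, Lrg1, Chi3l3, Chi3l1, Hp and Il1r2, which are 6 of the 23234 gene symbols in each deposited file. They were chosen by their difference between Gr-1+ and Gr-1- blood monocytes in these same libraries, so that difference is given below as a description and carries no test. Of the 6 genes, 5 reached the 1 FPKM average over all libraries that testing required, and Chi3l1 did not. FPKM is the number of sequenced fragments scaled by transcript length and by the mapped fragments of the library.

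RNA came from CD11b+ monocytes that were sorted from peripheral blood into Gr-1+ and Gr-1- cells. The mice were of strain C57BL/6 and 8 months of age. All carried Yaa, a Y chromosome with an added copy of an X chromosome segment that includes Tlr7, and the groups differed in Fcgr2, listed as Fcgr2b in the files, which encodes the inhibitory IgG receptor CD32. The 4 Gr-1+ libraries were labelled Fcgr2-/-.Yaa (called null, replicates 1 and 2), CEBPaCre with a floxed Fcgr2, and CD19Cre with a floxed Fcgr2. The 5 Gr-1- libraries were 1 each of null, CEBPaCre, CD11cCre, CD19Cre and floxed Fcgr2 with no Cre. CEBPaCre acts in the myeloid lineage, CD11cCre in dendritic cells and a fraction of monocytes, and CD19Cre in B cells, so a library labelled CD19Cre is labelled as keeping Fcgr2 in its monocytes. The labels name no animals, so it is not known whether each library is a separate mouse, and p-values measure only the spread between these libraries, which may be technical.

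The acute phase response is the change in blood proteins that follows infection or tissue injury, driven mainly by interleukin 6 and interleukin 1 acting on the liver through STAT3, C/EBP and NF-kappa-B factors. Several of its genes are also transcribed in myeloid cells: serum amyloid A3 is made by macrophages, and haptoglobin and LRG1 are also products of maturing neutrophils. Chitinase-like proteins keep the fold of chitinases but do not cleave chitin, and in mice they mark several states of monocytes, macrophages and neutrophils. IL1R2 is a decoy receptor that binds interleukin 1 without signalling.

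Some facts of the whole series bear on every value below. Fcgr2b RNA did not follow the genotype labels. In Gr-1+ it was 106 and 201 FPKM in the 2 libraries labelled null, against 195 FPKM in CD19Cre. In Gr-1- it was 145 FPKM in null, against 105 FPKM in CD19Cre and 74.9 FPKM in floxed. A value per gene cannot show whether RNA from a deleted allele is intact, so genotypes are used here only as labels. Between 9783 and 10258 genes per library reached 1 FPKM, and the depth in reads is unknown. The relative depth, taken from how finely the smallest FPKM values are spaced, ran from 0.705 to 2.66 with the floxed library at 1. Ribosomal protein genes took 2.07% and 2.39% of the summed FPKM in the 2 libraries labelled CD19Cre and 3.80% to 7.92% in the other 7. In bulk RNA, fewer cells of a type and less RNA per cell cannot be told apart.

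**Figure D1:**
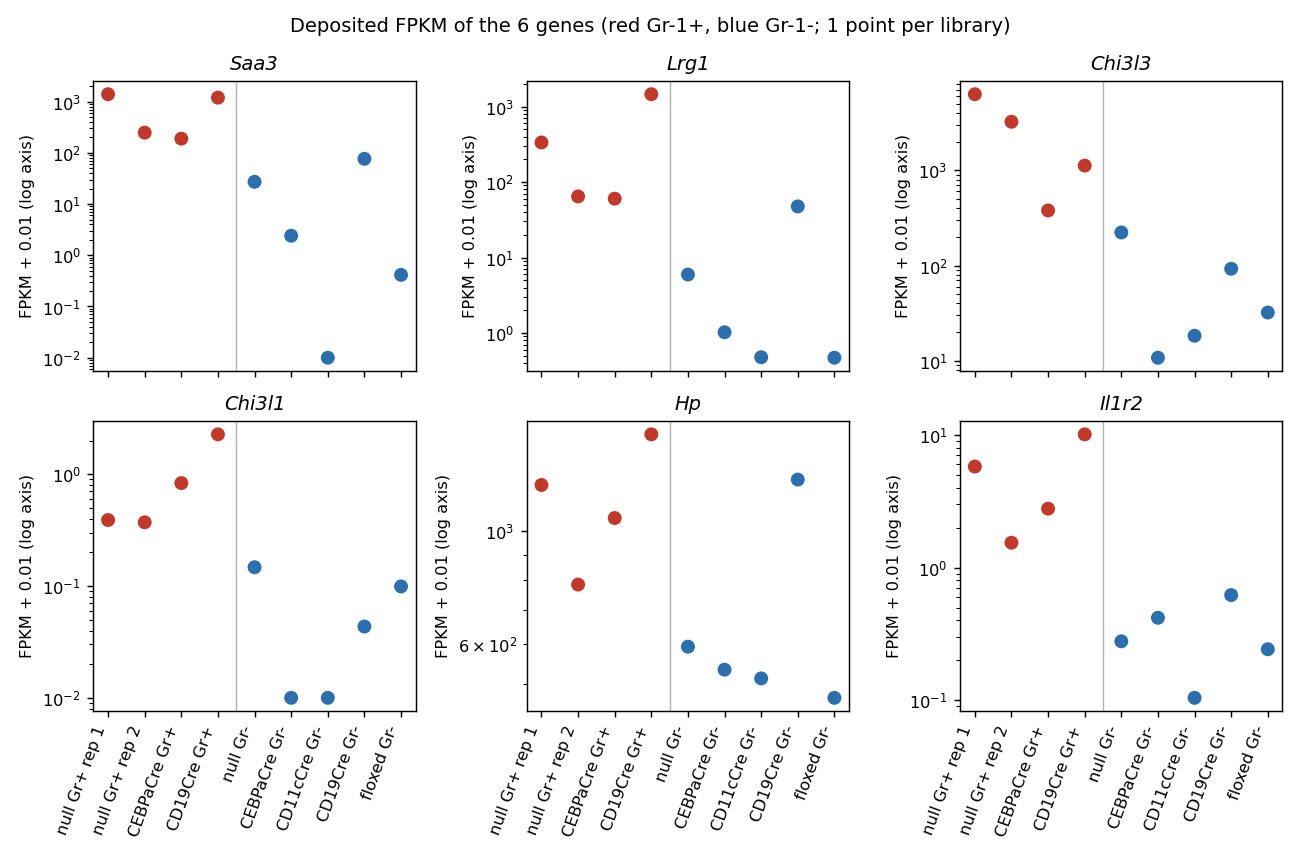
FPKM plus 0.01 of each gene on a log axis, with 1 point per library, Gr-1+ libraries in red and Gr-1- libraries in blue. Every Gr-1+ point lies above every Gr-1- point for 5 of the 6 genes, and for Hp the Gr-1- library labelled CD19Cre, at 1264 FPKM, lies among the Gr-1+ libraries.

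For 5 of the 6 genes, every Gr-1+ library lay above every Gr-1- library. The exception was Hp. Among the 10436 tested genes 10.2% had the same pattern, and nothing is read from this count because the genes were selected on it. Together the 6 genes took from 0.302% to 1.70% of the summed FPKM in Gr-1+ libraries and from 0.109% to 0.27% in Gr-1- libraries.

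Serum amyloid A3, the product of Saa3, is a secreted lipid-binding acute phase protein made in mice mainly outside the liver. Saa3 stood at 1400 FPKM in null replicate 1, 248 in null replicate 2, 190 in CEBPaCre and 1201 in CD19Cre among the Gr-1+ libraries. In Gr-1- libraries it stood at 27.2 FPKM in null, 2.40 in CEBPaCre, 76.8 in CD19Cre and 0.405 in floxed, and it was listed at 0 in CD11cCre. The Gr-1+ libraries thus fell into a high and a low pair, and the lowest Gr-1+ library was 2.47 times the highest Gr-1- library. The fitted difference between subsets was 6.38 ± 1.24 (SE, n = 4 and 5) in log2(FPKM + 1). Within a genotype label, Gr-1+ exceeded Gr-1- by a factor of 51.4 and 9.12 for the 2 null replicates, 79.0 for CEBPaCre and 15.7 for CD19Cre. The value of the floxed library was worth 2 of the steps found for this gene and that of the Gr-1- CEBPaCre library 27. If a step is 1 fragment, the floxed value rests on 2 fragments.

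The promoter of Saa3 is shown because C/EBP and NF-kappa-B factors are known regulators of this gene. The RefSeq table (GRCm38.p6) matched 5 of the 6 genes, and no window is given for Hp. Each window printed here runs from 250 bases before the annotated start to 20 bases after it. Searched motifs were TTNNGCAA for C/EBP, TTCNNNGAA for STAT and GGNNTTTCC for NF-kappa-B on both strands, and TATAAA on the strand of the gene. Capitals mark their matches, none of which overlapped another. The Saa3 window is chr7:46715657-46715926 on the minus strand.
Saa3 promoter: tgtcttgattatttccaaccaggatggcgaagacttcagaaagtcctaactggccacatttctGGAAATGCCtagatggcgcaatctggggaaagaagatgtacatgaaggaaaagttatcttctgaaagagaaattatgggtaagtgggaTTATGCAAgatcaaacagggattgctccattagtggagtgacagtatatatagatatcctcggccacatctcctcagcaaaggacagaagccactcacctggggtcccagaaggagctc
It holds 1 match to the C/EBP motif, at position -99 from the annotated start, and 1 match to the NF-kappa-B motif, on the opposite strand. Of 32851 windows of the same length, 10.1% held the C/EBP motif, 5.33% the NF-kappa-B motif, 7.58% the STAT motif and 7.91% TATAAA. A match describes the letters only.

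The nearest relative of Saa3 among tested genes was Saa1, a serum amyloid A of the liver. Its level ran from 1.89 to 13.5 FPKM in Gr-1+ libraries and from 0 to 0.924 FPKM in Gr-1- libraries. Saa1 was higher in Gr-1+ by 2.63 ± 0.44 (SE) in log2(FPKM + 1), with a limma adjusted p of 0.00216 over all tested genes. Saa1 amounted to at most 3.01% of Saa3 in the 8 libraries where Saa3 was above 0. The reading frames of Saa3 and Saa1 share 74.5% of aligned positions, and 2.81% of the 50-base windows of Saa1 occur unchanged in Saa3, so some fragments of Saa1 could belong to Saa3.

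LRG1 is a secreted leucine-rich repeat glycoprotein that modulates TGF-beta signalling. Lrg1 measured 334 FPKM in null replicate 1, 64.4 in null replicate 2, 60.1 in CEBPaCre and 1456 in CD19Cre among Gr-1+ libraries. Among Gr-1- libraries it measured 5.94 FPKM in null, 1.01 in CEBPaCre, 0.467 in CD11cCre, 47.5 in CD19Cre and 0.461 in floxed. The library labelled CD19Cre was the highest of both subsets, and its Gr-1- value came within a factor of 1.27 of the lowest Gr-1+ value. The range was 24.2-fold within Gr-1+ and 103-fold within Gr-1-. The subset difference was 5.61 ± 1.17 (SE, n = 4 and 5) in log2(FPKM + 1). Within a genotype label the ratio of Gr-1+ to Gr-1- was 56.3 and 10.8 for the null replicates, 59.4 for CEBPaCre and 30.6 for CD19Cre. The 2 lowest values corresponded to 5 steps in CD11cCre and 4 steps in floxed. The Lrg1 window, at chr17:56121927-56122196 on the minus strand, is printed for comparison with Saa3.
Lrg1 promoter: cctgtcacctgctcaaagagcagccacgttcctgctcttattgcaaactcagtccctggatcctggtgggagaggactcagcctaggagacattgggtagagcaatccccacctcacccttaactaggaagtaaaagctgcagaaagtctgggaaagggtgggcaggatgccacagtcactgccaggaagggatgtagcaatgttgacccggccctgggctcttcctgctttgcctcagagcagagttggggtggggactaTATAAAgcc
It held TATAAA after the annotated start and no match to the other 3 motifs in these letters.

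Chi3l3 encodes Ym1, a secreted chitinase-like protein of mouse macrophages and neutrophils. It was the most abundant of the 6 genes in both null Gr-1+ libraries, at 6304 FPKM in replicate 1 and 3240 in replicate 2, and stood at 379 in CEBPaCre and 1122 in CD19Cre. In Gr-1- libraries it was 223 FPKM in null, 10.8 in CEBPaCre, 18.3 in CD11cCre, 92.5 in CD19Cre and 32.1 in floxed. The libraries labelled null were the highest of each subset, and the lowest Gr-1+ value was 1.70 times the highest Gr-1- value. The subset difference was 5.30 ± 0.95 (SE, n = 4 and 5) in log2(FPKM + 1). Chi3l3 made up 67.9% and 74.7% of the summed FPKM of the 6 genes in the null Gr-1+ libraries, but 22.4% in CEBPaCre and 20.99% in CD19Cre. Both CEBPaCre libraries were the lowest of their subset for this gene. The Chi3l3 window is chr3:106167545-106167814 on the minus strand, where RefSeq names the gene Chil3.
Chi3l3 promoter: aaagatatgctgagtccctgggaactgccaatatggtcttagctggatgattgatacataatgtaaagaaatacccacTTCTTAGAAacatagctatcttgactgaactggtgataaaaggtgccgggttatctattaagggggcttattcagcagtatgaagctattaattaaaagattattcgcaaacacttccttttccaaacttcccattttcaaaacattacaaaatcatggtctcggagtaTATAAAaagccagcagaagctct
It held 1 STAT match, at position -172 from the annotated start, and TATAAA across that start.

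Chi3l4 encodes Ym2, a close relative of Ym1. Its level was between 8.76% and 11.7% of Chi3l3 in all 9 libraries, with a median of 10.03%, while Chi3l3 itself spanned 586-fold. The reading frames of the 2 genes share 94.4% of aligned positions, with 56 differing bases and 12 gap positions. The first 120 coding bases of each, from GENCODE transcripts, are shown because they carry only 3 differences, in capitals.
Chi3l3 coding start: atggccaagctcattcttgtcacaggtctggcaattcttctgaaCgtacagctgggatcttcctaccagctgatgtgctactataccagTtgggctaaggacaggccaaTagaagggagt
Chi3l4 coding start: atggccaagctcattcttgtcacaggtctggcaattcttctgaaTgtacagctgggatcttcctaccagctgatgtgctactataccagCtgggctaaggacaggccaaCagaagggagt
Of the 50-base windows of Chi3l4, 20.4% occur unchanged in Chi3l3, with a longest shared run of 136 bases. Values of Chi3l4 are therefore uncertain, and its fitted difference between subsets (limma adjusted p = 0.00261, 4.89 ± 0.85 in log2(FPKM + 1)) is not counted as separate from that of Chi3l3. Fragments of Chi3l4 could likewise have been counted for Chi3l3.

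**Figure D2:**
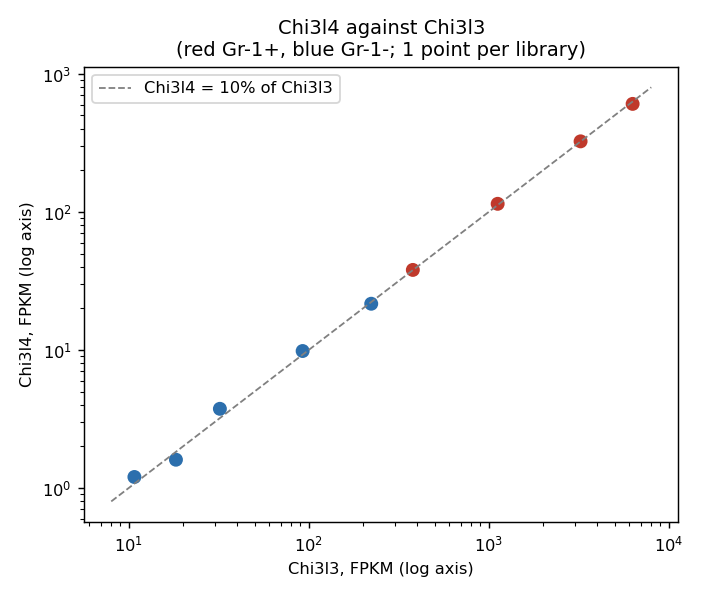
Chi3l4 against Chi3l3 in FPKM, both on log axes, with 1 point per library, Gr-1+ in red and Gr-1- in blue, and a dashed line where Chi3l4 is 10% of Chi3l3. All 9 libraries lie close to the line, between 8.76% and 11.7%.

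Chi3l1 encodes a chitinase-like glycoprotein, known as YKL-40 in humans, that is expressed in macrophages and late in neutrophil maturation. It was the least abundant of the 6 genes, at 0.379 FPKM in null replicate 1, 0.361 in null replicate 2, 0.822 in CEBPaCre and 2.26 in CD19Cre among Gr-1+ libraries. In Gr-1- libraries it was 0.137 FPKM in null, 0.0334 in CD19Cre and 0.0891 in floxed, and was listed at 0 in CEBPaCre and CD11cCre. The subsets did not overlap, although all Gr-1- values were near the step found for this gene. If a step is 1 fragment, the Gr-1+ values rest on 3, 4, 12 and 26 fragments in the order given and the nonzero Gr-1- values on 2, 1 and 1. Chi3l1 shares 52.4% of aligned coding positions and no 50-base window with Chi3l3, unlike Chi3l4.

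Haptoglobin, the product of Hp, binds free hemoglobin and is stored in neutrophil granules besides being secreted by the liver. Hp was abundant everywhere, at 1234 FPKM in null replicate 1, 785 in null replicate 2, 1062 in CEBPaCre and 1552 in CD19Cre among Gr-1+ libraries. Among Gr-1- libraries it was 592 FPKM in null, 534 in CEBPaCre, 513 in CD11cCre, 1264 in CD19Cre and 470 in floxed. The Gr-1- library labelled CD19Cre exceeded 3 of the 4 Gr-1+ libraries, and the other 4 Gr-1- libraries lay below every Gr-1+ library. The mean of Hp was 1158 ± 321 FPKM (SD, n = 4) over Gr-1+ libraries, against 675 ± 333 FPKM (SD, n = 5) over Gr-1- libraries. Its subset difference, 0.84 ± 0.33 (SE) in log2(FPKM + 1), was the smallest of the 5 tested genes, and it supplied 69.8% to 97.3% of the summed FPKM of the 6 genes in Gr-1- libraries.

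Il1r2, the decoy receptor, stood at 5.77 FPKM in null replicate 1, 1.53 in null replicate 2, 2.77 in CEBPaCre and 10.1 in CD19Cre among Gr-1+ libraries. In Gr-1- libraries it was 0.268 FPKM in null, 0.408 in CEBPaCre, 0.0943 in CD11cCre, 0.61 in CD19Cre and 0.232 in floxed. No Gr-1- library reached 1 FPKM, and the lowest Gr-1+ library was 2.51 times the highest Gr-1- library. If a step is 1 fragment, the Gr-1- values rest on 3, 8, 1, 14 and 2 fragments in that order and the Gr-1+ values on 35, 13, 31 and 89. The subset difference was 1.98 ± 0.37 (SE, n = 4 and 5) in log2(FPKM + 1), a scale that understates the change of low genes.

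The order of libraries within a subset was shared in part. Over all pairs of genes and pairs of libraries, 63 of 90 comparisons (70%) had the same order in Gr-1+ and 107 of 145 (73.8%) in Gr-1-, with ties left out. The library labelled CD19Cre was the highest for 4 of the 6 genes in each subset, and a library labelled null was the highest for the other 2. Hp and Il1r2 ordered the Gr-1+ libraries alike in 6 of 6 comparisons, and Lrg1 and Hp ordered the Gr-1- libraries alike in 10 of 10. In Gr-1+, Chi3l3 shared the order of Saa3 in 5 of 6 comparisons and of Lrg1 in 4 of 6, but that of Hp and of Il1r2 in 3 of 6 each and that of Chi3l1 in 2 of 6. In Gr-1-, Saa3 shared the order of Lrg1, Hp and Il1r2 in 9 of 10 comparisons each. It shared that of Chi3l3 in 7 of 10 and that of Chi3l1 in 6 of 9. Il1r2 shared the order of Lrg1 and of Hp in 8 of 10 each. Chi3l3 shared the order of Lrg1, Hp and Il1r2 in 6 of 10 Gr-1- comparisons each, and Chi3l1 in 5 of 9 each. Chi3l3 and Chi3l1 had the same order there in 8 of 9 comparisons, with null highest for both. If a step is 1 fragment, that order of Chi3l1 rests on 2 fragments in null and 1 each in CD19Cre and floxed. CEBPaCre and CD11cCre had 0, so the Gr-1- comparisons with Chi3l1, also within the total, are uncertain. The CD11cCre library was the lowest or tied lowest for 3 of the 6 genes and the floxed library for 2. By the same count, the order was shared in 55.6% of comparisons in Gr-1+ and 58.9% in Gr-1- for 10 classical monocyte markers other than Hp, and in 52.8% and 56.1% without Cd177, which is also in the granule list. For 12 nonclassical monocyte markers it was shared in 52.3% and 55.3%, and for 6 neutrophil secondary and tertiary granule genes in 71.1% and 63.0%. The Gr-1- share of the granule genes is uncertain, with 92 comparisons left after ties. There Camp was 0 in every library, Ltf was at most 0.156 FPKM and Ngp at most 0.638 FPKM. These shares are descriptions of 4 and 5 libraries without a test, and all genes of a library share its depth and composition.

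**Figure D3:**
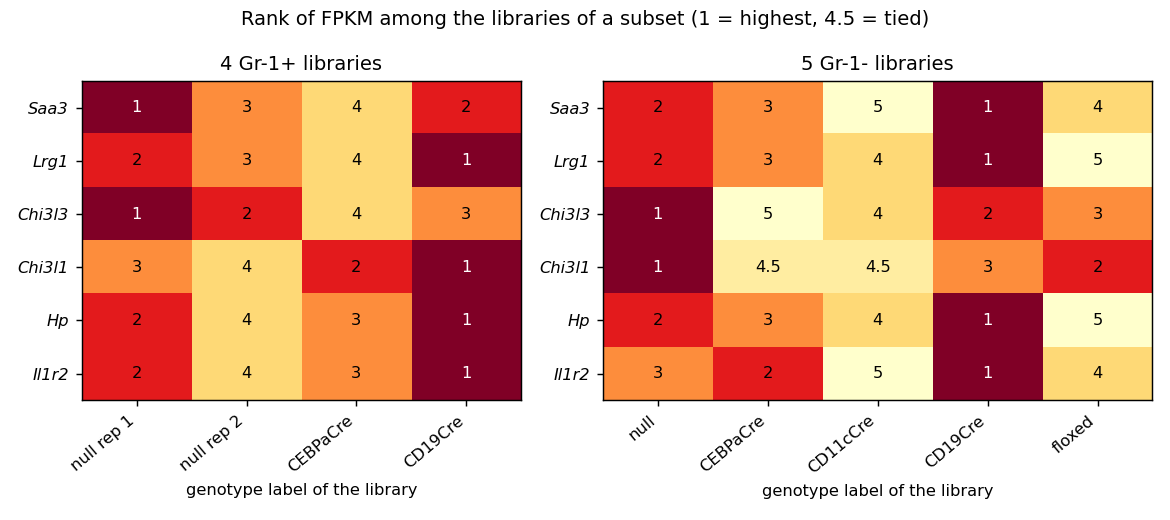
Rank of each library among the libraries of its subset for each gene, where 1 is the highest FPKM and ties share a mean rank. CD19Cre holds rank 1 for 4 of the 6 genes in each panel, and Chi3l3 has null in rank 1 in both.

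The libraries labelled CD19Cre were compared with the other 7, with the subset as a covariate. This contrast was not used to choose the genes, but it was chosen with earlier results known in which these libraries stood apart. Lrg1 and Hp were higher in CD19Cre: 2 of the 5 tested genes, where 13.9% of all tested genes were higher and 5.41% lower. Lrg1 differed by 4.06 ± 0.70 (SE) in log2(FPKM + 1), with a limma adjusted p of 0.00857, and was higher in 7 of 7 same-subset pairs of libraries. In Gr-1+ the CD19Cre value was 4.36 times, and in Gr-1- 8.00 times, the highest other library. Hp differed by 0.95 ± 0.23 (SE), with a limma adjusted p of 0.0214, also in 7 of 7 pairs. Neither call held with 1 CD19Cre library left out. Without the Gr-1+ one, the Lrg1 difference was 4.37 and that of Hp 1.27, with a limma adjusted p of 0.226 for both. Without the Gr-1- one, Lrg1 differed by 3.72 (limma adjusted p = 0.0726) and Hp by 0.62 (limma adjusted p = 0.243). Scaling libraries to an equal upper quartile moved the median difference of all genes from 0.18 to -0.34 and the split of called genes from 1453 higher and 565 lower to 114 and 1314. Under it, the Hp difference was 0.34, with a limma adjusted p of 0.396, while Lrg1 differed by 3.52 (limma adjusted p = 0.0151). Quantile normalization gave 1138 higher and 795 lower and kept both calls, with a limma adjusted p of 0.00734 for Lrg1 and 0.00545 for Hp.

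Saa3 and Il1r2 did not pass in that contrast. Saa3 differed by 3.09 ± 1.20 (SE) in log2(FPKM + 1), with a limma adjusted p of 0.0908, and it was higher in CD19Cre in 6 of 7 same-subset pairs. The exception was null replicate 1. Without the Gr-1- null library the limma adjusted p of Saa3 was 0.0376. Il1r2 differed by 0.90 ± 0.35 (SE), with a limma adjusted p of 0.0925, in 7 of 7 pairs. Chi3l3 had a difference of 0.31 ± 1.17 (SE), with a limma adjusted p of 0.868 and 4 of 7 pairs in that direction. Chi3l1 was not tested. Its difference of 0.52 came from the Gr-1+ library, since without that library it was -0.03. The part of the low ribosomal share and of the neutrophil granule genes described below in these differences was not tested.

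The contrast of labels that remove Fcgr2 in myeloid cells (null and CEBPaCre, 5 libraries) with labels that keep it (CD19Cre and floxed, 3 libraries) gave no call for any of the 5 tested genes. Over the 10429 tested genes, limma called 0, or 0%, with 1470 at an unadjusted p under 0.05 and a smallest adjusted p of 0.306. Lrg1 was lower in the deleted group by 2.27 ± 1.16 (SE) in log2(FPKM + 1), with a limma adjusted p of 0.391, and the others ranged from -0.73 for Saa3 to 0.28 for Chi3l3. The 2 CD19Cre libraries are part of both contrasts, so the contrasts are not independent. Without the CD19Cre libraries, the group labelled as keeping Fcgr2 was the floxed Gr-1- library alone. Against that single library, the Lrg1 difference was 1.35 and that of Saa3 was 2.80. Without the floxed library, limma called 2551 genes. Lrg1 was then lower in the deleted group by 3.71 (limma adjusted p = 0.0111) and Hp by 0.88 (limma adjusted p = 0.0414), against 2 libraries that were both labelled CD19Cre.

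**Figure D4:**
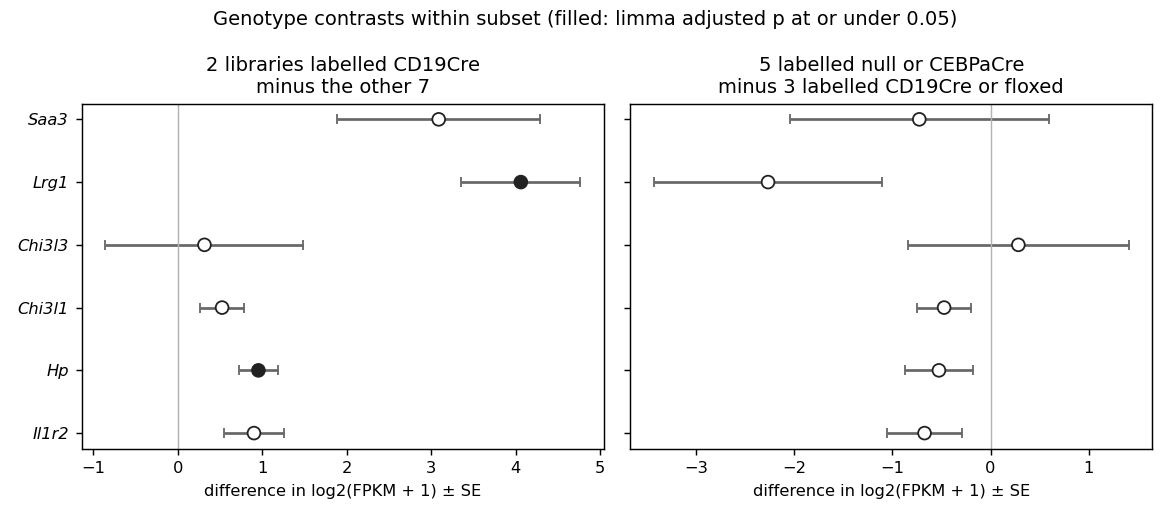
Differences in log2(FPKM + 1) with standard errors for the 6 genes, on the left for the 2 libraries labelled CD19Cre minus the other 7 and on the right for the 5 labelled null or CEBPaCre minus the 3 labelled CD19Cre or floxed. Filled points, Lrg1 and Hp on the left, have a limma adjusted p at or under 0.05; Chi3l1 was not tested.

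Other acute phase genes moved unevenly between the subsets. Of 28 listed acute phase genes besides the 6, 9 were tested: 4 passed with higher levels in Gr-1+, 1 passed in the opposite direction, and 4 missed the threshold. Among all tested genes, limma called 8.84% toward Gr-1+ and 5.95% toward Gr-1-. The 4 were Lbp, Lcn2, C3 and Saa1, the last with the reservation above that some of its fragments could belong to Saa3. Lcn2, lipocalin 2, which binds bacterial siderophores, had a mean of 138 ± 129 FPKM (SD, n = 4) over Gr-1+ libraries, against 0.869 ± 0.780 (SD, n = 5) over Gr-1- libraries (limma adjusted p = 1.8e-05). Lbp, the lipopolysaccharide binding protein, had 3.94 ± 2.07 FPKM against 0.584 ± 0.257 (limma adjusted p = 0.00163). Cp, ceruloplasmin, the copper-carrying ferroxidase, went the other way, with 0.305 ± 0.12 FPKM over Gr-1+ libraries against 6.58 ± 2.17 (limma adjusted p = 3.5e-05). Lcn2, Lbp, Saa1 and Cp averaged under 1 FPKM in their lower subset, so they met the filter for testing only through the higher one. The same holds for Pdcd1lg2 and Cebpe below, so counts among tested genes depend on that filter. The median difference of the 9 tested acute phase genes was 0.84 in log2(FPKM + 1), against 0.09 over all tested genes. Among the 19 below 1 FPKM on average were Crp, Apcs, Saa2 and the fibrinogen genes Fga, Fgb and Fgg.

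Among chitinase genes besides Chi3l3 and Chi3l1, 3 of 6 were tested and only Chi3l4 was called, with the reservation above. Chid1, a chitinase-domain protein of lysosomes, had 8.67 ± 4.65 FPKM over Gr-1+ libraries against 3.60 ± 1.60, and missed the threshold (limma adjusted p = 0.0596). None of the 5 tested receptors of chitinase-like proteins was called in either direction, and 1 was called toward Gr-1- with the genotype label as a block. Of 6 tested alternative activation genes, a program in which Chi3l3 is often counted, Trem2, a lipid-sensing receptor, passed toward Gr-1+ (51.0 FPKM on average against 5.27), and Pdcd1lg2, which encodes a ligand of PD-1, passed toward Gr-1- (7.79 against 0.17). Arg1 and Retnla, the genes most often measured with Chi3l3, were below 1 FPKM on average.

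Of 11 tested genes of the interleukin 1 family and its signalling besides Il1r2, among them Casp1, Myd88 and Irak4, 1 passed toward Gr-1+, 2 passed toward Gr-1-, and 8 missed the threshold. Il1b, the cytokine that IL1R2 captures, had 457 ± 149 FPKM over Gr-1- libraries (SD, n = 5) against 89.1 ± 65.3 over Gr-1+ libraries (SD, n = 4), a difference opposite in sign to that of Il1r2 (limma adjusted p = 0.0037). Il18 was higher in Gr-1+ (24.6 against 6.86 FPKM), and Il1f9, an interleukin 36 ligand, was higher in Gr-1- (10.3 against 6.04 FPKM). Il1r1, the signalling receptor, was below 1 FPKM on average. Of 7 tested genes of hemoglobin and heme handling besides Hp, Blvrb, a biliverdin reductase, passed toward Gr-1- (limma adjusted p = 0.0182), and the remaining 6 missed the threshold. Cd163, the receptor for the haptoglobin-hemoglobin complex, was below 1 FPKM on average. Of 7 tested receptors of serum amyloid A, P2rx7 passed toward Gr-1+, Fpr1 and Cd36 toward Gr-1-, and 4 missed the threshold. Cd36, a scavenger receptor, had a mean of 128 FPKM over Gr-1- libraries but only 5.398 in Gr-1+.

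Of 10 tested TGF-beta genes around LRG1, Acvrl1, the ALK1 receptor, was higher in Gr-1+ (limma adjusted p = 0.0185), Smad3 lay in the opposite direction (limma adjusted p = 0.0487), and 8 missed the threshold. Eng, a coreceptor through which LRG1 acts on endothelium, had a mean of 1.64 FPKM over Gr-1+ libraries against 0.316, and lay below the filter. Of 15 tested genes of the IL-6, STAT3 and C/EBP axis, 3 passed toward each subset and 9 missed the threshold. Il6st, the shared receptor gp130, had a mean of 25.5 FPKM over Gr-1+ libraries against 5.87 (limma adjusted p = 0.0031). Cebpe, a factor of granule gene expression, had 7.39 FPKM against 0.593 (limma adjusted p = 0.000494), and Cebpd was also higher in Gr-1+. Cebpb, Nfkb1 and Nfkbiz were higher in Gr-1-. Of 9 tested glucocorticoid targets, Anxa1 passed toward Gr-1+, Zbtb16 toward Gr-1-, and 7 missed the threshold.

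For the subset comparison, upper quartile scaling moved the median difference of all genes from 0.09 to -0.23 and the split of called genes from 923 higher and 621 lower in Gr-1+ to 514 and 1158. With the genotype label as a block, 2760 genes were called in place of 1544. The block also raised the count toward Gr-1+ from 1 to 2 for chitinases, the interleukin 1 list and alternative activation. Toward Gr-1- it raised the TGF-beta count from 1 to 3, the glucocorticoid count from 1 to 2 and the count of receptors of chitinase-like proteins from 0 to 1.

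The Gr-1 antibody binds Ly6C of classical monocytes and Ly6G of neutrophils, and neutrophil granule genes differed between the subsets as well. All 6 listed secondary and tertiary granule genes were higher in Gr-1+, among them Lcn2, which is also in the acute phase list. Their summed level was 308 to 1148 FPKM there against 3.80 to 20.98 in Gr-1-. Of these sums, Cd177, also a classical monocyte marker here, gave 68.2 to 223 FPKM in Gr-1+ and 1.67 to 9.43 in Gr-1-. Camp, a cathelicidin, was listed at 0 in every Gr-1- library. Within Gr-1+ the sum was 782 FPKM in null replicate 1, 308 in null replicate 2, 327 in CEBPaCre and 1148 in CD19Cre. Hp and Il1r2 had the same order of Gr-1+ libraries as this sum. Lrg1 departed from it only with null replicate 2 above CEBPaCre, and Chi3l1 only with CEBPaCre above null replicate 1. Chi3l3 and Saa3 had other orders and were highest in null replicate 1. Within Gr-1- CD19Cre was again the highest. CD11cCre came next at 8.54 FPKM, of which Cd177 was 8.28. The CD11cCre library was lowest or tied lowest for 3 of the 6 genes. Primary granule genes summed to 32.9 to 63.6 FPKM in Gr-1+ against 0.0459 to 1.72 in Gr-1-, and both tested ones were higher in Gr-1+. Surface and mature neutrophil genes summed to 95.5 to 239 FPKM in Gr-1+ against 318 to 534 in Gr-1-, a direction set by Fpr1, which is also among the serum amyloid A receptors above. Fpr1 alone stood at 14.1 to 64.9 FPKM in Gr-1+ against 123 to 403 in Gr-1-, and without it the sums overlapped, at 81.4 to 222 against 76.8 to 206 FPKM. Of the 7 tested genes in this list, 2 were higher in each subset. Cxcr1 was listed at 0 in 8 of the 9 libraries, and Stfa2l1 and Stfa3 in all Gr-1- libraries. Ly6g was not found among the gene symbols of these data, so it could not be examined. The part of neutrophil RNA in the values of the 6 genes was not tested.

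**Figure D5:**
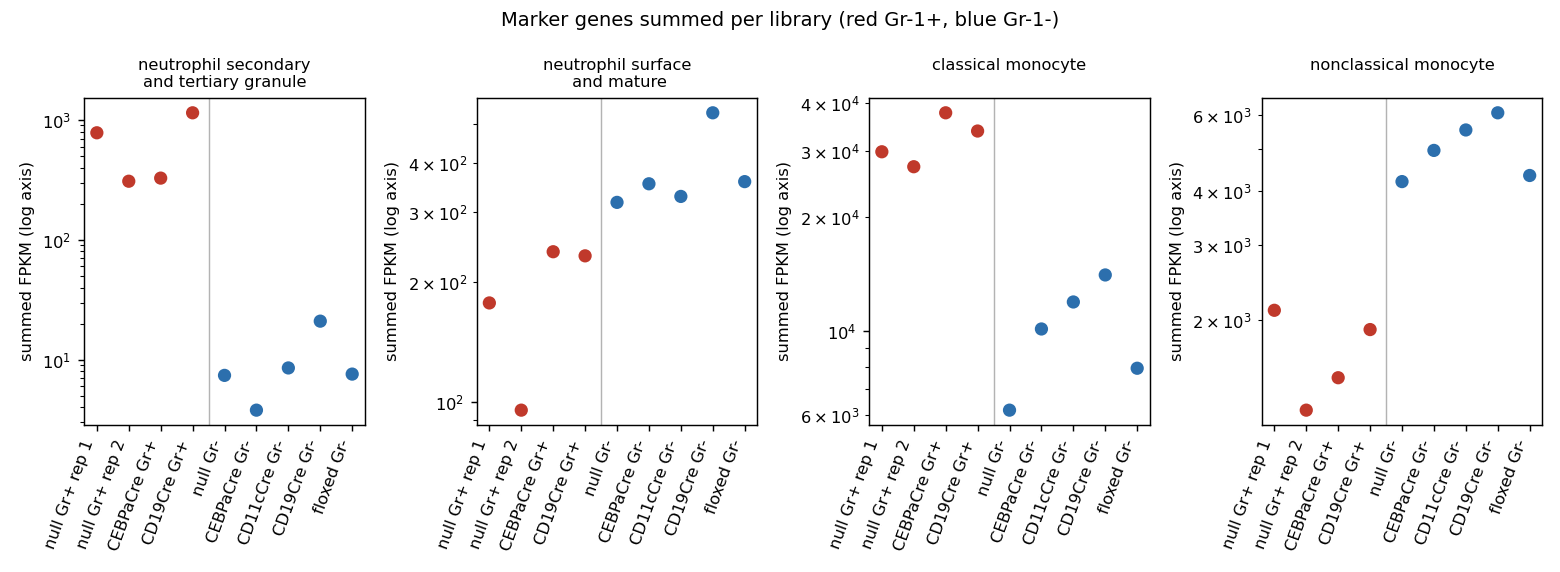
Summed FPKM of 4 marker lists on log axes, with 1 point per library, Gr-1+ in red and Gr-1- in blue, and the 6 genes left out of the sums. Granule genes are at 308 to 1148 FPKM in Gr-1+ against 3.80 to 20.98 in Gr-1-, while the higher sums of surface and mature neutrophil genes in Gr-1- come from Fpr1 and overlap without it.

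The sorted subsets carried the markers of their labels. Of 10 tested classical monocyte markers without Hp, 9 were higher in Gr-1+ (27185 to 37757 FPKM in sum against 6169 to 14058). Cd177, one of them, is also in the granule list, and the sums without it were 27117 to 37631 against 6167 to 14049 FPKM. Of 12 nonclassical markers, 11 were higher in Gr-1- (4203 to 6073 FPKM against 1238 to 2111). NK cell genes summed to 22.7 to 424 FPKM in Gr-1- against 1.24 to 4.02 in Gr-1+.

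The genes most like each member were found after the mean of each subset was taken away, by Pearson's r of log2(FPKM + 1) over 9 libraries among 6980 genes (6981 for Chi3l1). Likeness here is a description: the values of all genes in a library share its depth and composition, and the 2 libraries labelled CD19Cre are among the 9. Saa3 was most like Lilrb4 (r = 0.967), Ikbke (0.944) and Plscr1 (0.943). Lrg1 was most like Gab3 (0.967), Ecm1 (0.966) and Adora2a (0.957). Chi3l3 was most like Chi3l4 (0.994), Pkib (0.981) and Prdx4 (0.896). Prdx4 differed from Chi3l3 in the size of its range: it lay between 37.6 and 45.03 FPKM in all Gr-1+ libraries while Chi3l3 spanned 16.6-fold there. Chi3l1 was most like 3 genes of granulocyte precursors, Ngp (0.933), Elane (0.929) and Cebpe (0.927). Ngp was the highest in the Gr-1+ CD19Cre library, at 210.4 FPKM, as was Chi3l1. Hp was most like Vdac2 (0.990), Ufsp2 (0.985) and Txndc9 (0.982), and Il1r2 was most like Cks1b (0.966), Spint1 (0.956) and Baz1a (0.956). No gene was among the 3 most like more than 1 of the 6.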

How the data were processed

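Gene expression was read from 9 deposited tables, 1 per library. The FPKM values were made by the authors, with TopHat2 2.0.8 and Cufflinks 2.1.1 on the mm9 build per the submitters' processing notes. The annotation and settings are not given in the sources used here. All value columns were used, so 0 were left out.

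On log2(FPKM + 1), limma 3.58.1 (R 4.3.3; lmFit, eBayes with a trend) was run for genes that averaged 1 FPKM or more in the 9 libraries and were above 0 in 2 or more of those fitted. Benjamini-Hochberg adjustment ran over all tested genes, with calls at an adjusted p at or under 0.05. The script was tested on simulated data. Genotype contrasts had the subset as a covariate, and CD11cCre was left out of the deletion contrast.

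The 6 genes, the gene lists and the contrasts were chosen with earlier results of these data known. Named genes were the 6, the 3 genes most like each (averaging 5 FPKM or more in one of the subsets; predicted genes and small RNAs left out), and per list up to 4 genes with the smallest p and the most abundant one. C3, Nfkbiz, Crp, Apcs, Saa2, Fga, Fgb, Fgg, Arg1, Retnla, Il1r1, Cd163 and Eng were named after their values were seen. A step was the largest FPKM increment, within a tolerance of 0.001, that gave whole multiples in every low value of a gene after relative depth. Whole fractions of that increment would fit as well, so the numbers of steps are the lowest that fit. Symbols were matched to RefSeq GRCm38.p6 promoters, and coding frames are the longest frames in GENCODE transcripts. Files hold no coordinates, so mm9 positions are not used. Marker sums without Fpr1 or Cd177 were added after seeing the data.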

Additional observations from a re-analysis of the deposited data

Results flagged for a closer look

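Dixon's criterion at the 95% level was applied to FPKM without a log, in 12 groups (6 genes in 2 subsets). Of these, 2 had a sample far from the others. The usual rate of about 1 of 20 groups holds for normally distributed values and separate groups. These groups share libraries and FPKM need not be normal, so nothing is read from the count. Both were the Gr-1- library labelled CD19Cre. Lrg1 stood at 47.5 FPKM there, with the other 4 libraries between 0.461 and 5.94 FPKM. In log2(FPKM + 1), where the criterion was not applied, it stood at 5.60 against 0.547 to 2.79. Hp stood at 1264 FPKM there, with the other 4 between 470 and 592 FPKM.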

How the results depend on the processing

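The direction of the subset difference was fixed by the choice of the genes, so the alternatives say nothing of its stability. The shares of same-order comparisons ran from 57.8% to 72.9% in Gr-1+ and from 70.6% to 80.0% in Gr-1-. With the genotype label as a replicate block, 2760 genes were called between subsets in place of 1544. Among the list counts, 6 moved by over 1.5 times under at least 5 of 17 alternatives: TGF-beta toward Gr-1- (14, range 0 to 4) and toward Gr-1+ (5, 0 to 2), serum amyloid A receptors toward Gr-1+ (9, 0 to 1), chitinases toward Gr-1+ (5, 1 to 2), interleukin 1 toward Gr-1- (5, 1 to 2) and glucocorticoid targets toward Gr-1- (5, 1 to 3). Interleukin 1 toward Gr-1- fell to 1 without either null Gr-1+ replicate, either CEBPaCre library or CD11cCre, and the IL-6 axis toward Gr-1- fell from 3 to 1 without null Gr-1+ replicate 2. A block was not fitted for the genotype contrasts, whose groups are the labels themselves.

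In the deletion contrast 0 genes were called, and 0 to 2551 with each library left out in turn. The count was 2551 without floxed, 6 without the Gr-1+ CD19Cre library and at most 1 without any other. Leaving out both CD19Cre libraries left floxed as the only library labelled as keeping Fcgr2. Against it, Saa3 (2.80), Lrg1 (1.35), Hp (0.26) and Il1r2 (0.12) reversed. Counting CD11cCre as deleted reversed Chi3l3 (-0.047). With each library left out, Saa3 ran from -2.24 to 0.49 (reversed without the Gr-1- CD19Cre library) and Chi3l3 from -0.62 to 1.38 (reversed without null Gr-1+ replicate 1, the Gr-1+ CD19Cre or the Gr-1- null library). In the CD19Cre contrast 2018 genes were called, 1251 without the filter, and 1 to 2626 with each library left out (1 without the Gr-1+ CD19Cre library, 539 without the Gr-1- one). The limma call of Hp was lost without the filter (adjusted p = 0.0627) at the same difference of 0.95, as more genes were adjusted over. Chi3l3 reversed under upper quartile scaling (-0.29) and ran from -0.82 to 1.38 with each library left out (reversed without the Gr-1+ CEBPaCre or the Gr-1- CD19Cre library). Where an arm of a contrast had 1 library, that library is assumed to vary like the others. The causes were not tested. The number of libraries per label, 1 or 2 per subset, and the unknown depth limit what can be told apart.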
